A study of Homo sapiens with 6 samples.

Results

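Cathepsins and legumain are the proteases that digest proteins inside the lysosome. Transcript levels of 10 of these genes, CTSA, CTSB, CTSC, CTSD, CTSH, CTSL, CTSS, CTSV, CTSZ and LGMN, were described in A549, an established line from a human lung adenocarcinoma. All probes that the platform annotation assigns to 1 of these symbols were taken, which gave 19 of the 47231 probes on the array, for 10 of 20046 annotated genes. A detection p-value under 0.05 on at least 3 of the 6 arrays was required, and 18 member probes met it, among 19394 probes in all. All 10 genes kept at least 1 probe. The control group was transfected with pcDNA-MYC (3 arrays) and the NME2-induced group with pcDNA-NME2-MYC (3 arrays), and RNA was isolated from both 48 h later. NME2 encodes a nucleotide kinase known as a metastasis suppressor. The family was selected on the log2 fold changes of this same contrast, with the lower level of CTSD in NME2-induced cells already known. The differences of the members are therefore given as a description, and no p-value is given for a member. Counts of members past a threshold are set beside the share of all probes and are no test of the family. Probes at NME2 itself did not share a direction. An NME2 probe was higher by 1.04 on the log2 scale in NME2-induced cells. Another NME2 probe stood at 0.26, with arrays of the groups overlapping, and a further NME2 probe at -0.59. Probes for the NME1-NME2 readthrough were at -1.99 and -1.89. Every direction below is therefore that between arrays as labelled.

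Most cathepsins are made as inactive precursors, tagged with mannose 6-phosphate in the Golgi, carried to the acidic lysosome and activated there by cleavage. CTSD is an aspartic protease, CTSA a serine carboxypeptidase, and the others here are cysteine proteases. LGMN, an asparaginyl endopeptidase, cuts after asparagine and processes several cathepsins. Secreted cathepsins, CTSB, CTSD and CTSL in particular, are known from tumours, where they can degrade matrix proteins. Many lysosomal genes carry a CACGTG E-box in their promoters, the core of the element bound by TFEB and its relatives TFE3 and MITF.

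The promoters of CTSD and CTSA are shown because, of the 7 members with a promoter in the RefSeq table (GRCh38.p14), these were the ones that held CACGTG in the 250 bases before the gene's start as the table places it. CTSD lies on the minus strand (promoter chr11:1763928-1764177) and CTSA on the plus strand (promoter chr20:45891085-45891334). The sequences are written 5′ to 3′ along the gene, and capitals mark CACGTG.
CTSD promoter: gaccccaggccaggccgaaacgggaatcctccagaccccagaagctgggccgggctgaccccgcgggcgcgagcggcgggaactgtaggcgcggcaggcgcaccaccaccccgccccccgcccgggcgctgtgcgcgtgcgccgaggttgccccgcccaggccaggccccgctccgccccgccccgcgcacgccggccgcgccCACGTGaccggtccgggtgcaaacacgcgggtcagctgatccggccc
CTSA promoter: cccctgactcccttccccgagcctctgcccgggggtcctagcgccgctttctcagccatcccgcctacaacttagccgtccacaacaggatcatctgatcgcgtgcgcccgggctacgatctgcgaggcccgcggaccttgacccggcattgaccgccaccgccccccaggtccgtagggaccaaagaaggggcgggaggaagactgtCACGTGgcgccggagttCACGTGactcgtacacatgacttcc

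The E-box of CTSD began 47 bases before the start. The pair in CTSA began 42 and 25 bases before it. CACGTG reads the same on both strands and occurred in 6.34% of 35116 promoters of the same length. The longer TCACGTG, searched on both strands and overlapping the first motif, was likewise in CTSD and CTSA, and in 3.31% of all promoters. The GC box GGGCGG, on either strand, was in the promoters of all 7 members and in 42.64% of all. The TATA box TATAAA, on either strand, was in 0 of 7 and in 10.72% of all. The GC content of the windows was 79.2% for CTSD and 65.6% for CTSA, against a median of 58.0% over all promoters. A match is a stretch of letters and was not tested as a binding site.

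**Figure D1:**
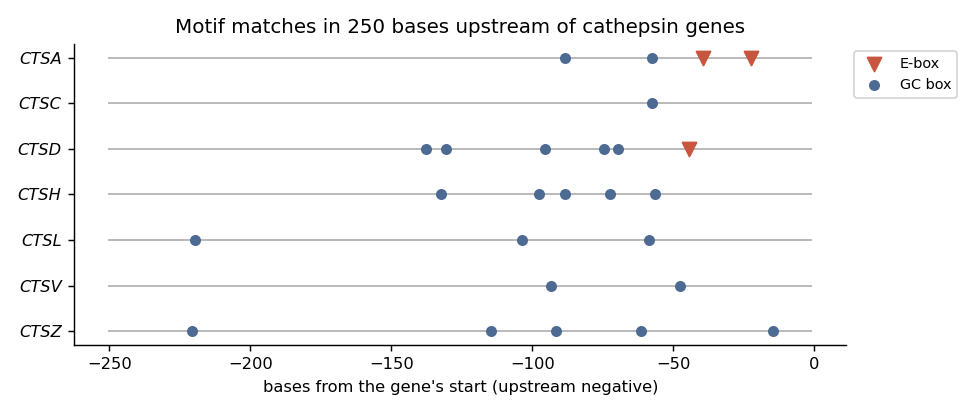
Positions of E-box (CACGTG, triangles) and GC box (GGGCGG on either strand, circles) matches in the 250 bases before the start that RefSeq's promoter table uses for 7 cathepsin genes (for CTSV, a start inside the annotated gene). The horizontal axis is the distance from the start in bases. E-boxes appear in CTSA and CTSD, and GC boxes in all 7.

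CTSL and CTSV encode close relatives, and their promoters shared the longest stretch of any of the 21 pairs of member promoters, 23 bases against 13 for the next pair. It is shown with the CCAAT box in capitals, and began 96 bases before the start of CTSL and 86 before that of CTSV, both on chromosome 9. The CTSV window (chr9:97039143-97039392) precedes the start used by the table but lies inside the annotated span of the gene (chr9:97029677-97039643, minus strand), so it is not the stretch before the outermost start. CCAAT, on either strand, was in 32.01% of all promoters.
CTSL and CTSV shared stretch: gccggcacagCCAATcgcagcgc

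Probe levels were taken as log2 signals after neqc, limma's background correction and normalization, and a difference is the mean of the NME2-induced arrays minus that of the control arrays, with its moderated standard error (SE). Levels of different probes cannot be set against each other, because each probe binds its target with its own efficiency. In RNA from a whole culture, fewer cells that express a gene and less RNA per cell cannot be told apart. The samples were labelled as biological replicates, and the errors measure the spread between these samples.

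Among the 10 genes, CTSD had the largest difference. CTSD is the main aspartic protease of the lysosome (GRCh38.p14, chr11:1752755-1763927), and the only probe for it was ILMN_1674038. Its log2 signal was 8.62, 8.60 and 8.49 on the control arrays and 8.11, 8.10 and 8.15 on the NME2-induced arrays. All NME2-induced arrays were below all control arrays, and the gap between the groups was wider than the range within either. The means were 8.57 ± 0.07 in control and 8.12 ± 0.03 in NME2-induced cells (SD, n = 3 each), a 1.37-fold lower signal (log2 fold change -0.45, SE 0.09). As deposited, before the log transformation, the intensities of CTSD were 378.8, 372.8 and 342.6 in control and 261.0, 258.4 and 268.0 in NME2-induced cells. Of all detected probes, 3.59% had a larger absolute difference.

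CTSA, a carboxypeptidase that also holds the lysosomal enzymes NEU1 and GLB1 in a protective complex, read 8.40, 8.73 and 8.66 in control and 8.13, 8.59 and 8.47 in NME2-induced cells. These groups overlapped, and the difference of CTSA was -0.20 (SE 0.15), little more than its own error. It ranged from -0.30 without NME2-induced replicate 2 to -0.06 without NME2-induced replicate 1. Replicate 1 was the lowest array of CTSA in both groups.

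**Figure D2:**
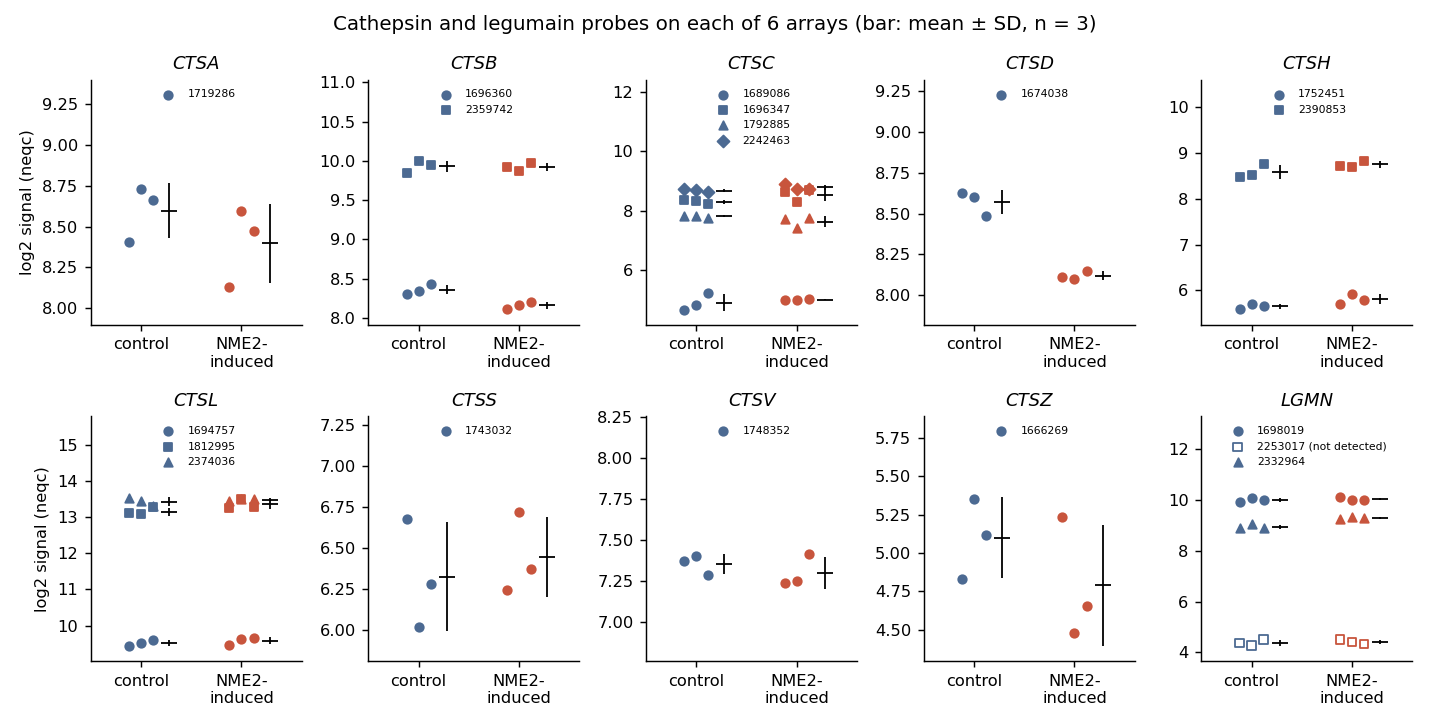
Log2 signal (neqc, vertical axis, scaled per gene) of each cathepsin and legumain probe on 3 control arrays (blue) and 3 NME2-induced arrays (red), with bars for the mean ± SD. Numbers in the keys are probe identifiers and open symbols mark the LGMN probe that was not detected. CTSD shows 1 probe with separated groups, whereas CTSB, CTSC and LGMN each hold probes that separate and probes that overlap.

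The endopeptidase LGMN had the largest difference upward, by 1 of its 3 probes. LGMN lies at chr14:92703809-92748627. Probe ILMN_2332964 read 8.90, 9.05 and 8.91 in control and 9.25, 9.35 and 9.29 in NME2-induced cells. Its groups were apart. The means of 8.95 ± 0.08 and 9.30 ± 0.05 (SD, n = 3 each) gave a 1.27-fold higher signal for LGMN (log2 fold change 0.34, SE 0.09), and 9.19% of detected probes had a larger absolute difference. A second LGMN probe, ILMN_1698019, read 9.93, 10.09 and 10.00 in control and 10.11, 10.02 and 10.01 in NME2-induced cells. Its groups overlapped, and its difference of 0.04 (SE 0.09) was 0.30 smaller than that of the first. The remaining LGMN probe, ILMN_2253017, was not detected on any array, so no difference is given for it.

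CTSB, a cysteine protease that acts both as an endopeptidase and as a dipeptidyl carboxypeptidase, also had probes that parted. Probe ILMN_1696360 read 8.31, 8.34 and 8.42 in control and 8.11, 8.16 and 8.20 in NME2-induced cells. All arrays of CTSB by this probe were lower in the NME2-induced group, 1.15-fold on average (log2 fold change -0.20, SE 0.08). The other CTSB probe, ILMN_2359742, which was designed to another RefSeq transcript, read 9.85, 9.99 and 9.95 in control and 9.92, 9.87 and 9.97 in NME2-induced cells. These groups lay on top of each other, at a difference of -0.01 (SE 0.09). All LGMN probes share an annotated transcript, as do the CTSC probes ILMN_1696347, ILMN_1792885 and ILMN_2242463. Among the CTSL probes, ILMN_2374036 is annotated to another transcript than the rest. Whether transcripts account for differences between probes was not tested.

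The endopeptidases CTSL, CTSV and CTSS showed overlapping groups at every probe. CTSL, which is broadly expressed, was read by 3 probes. Probe ILMN_1812995 of CTSL read 13.10, 13.07 and 13.27 in control and 13.26, 13.49 and 13.28 in NME2-induced cells, where 2 NME2-induced arrays lay close to the highest control array (log2 fold change 0.20, SE 0.11). The other two CTSL probes were both at 0.06 (SE 0.09 for ILMN_1694757 and 0.10 for ILMN_2374036). CTSV, a relative of CTSL known from thymus and testis, ranged from 7.29 to 7.40 in control and from 7.24 to 7.41 in NME2-induced cells (log2 fold change -0.05, SE 0.09). CTSS, best known from antigen-presenting cells, where it cleaves the invariant chain, read 6.68, 6.01 and 6.28 in control and 6.24, 6.72 and 6.37 in NME2-induced cells. CTSS was among the members with the widest spread within a group, and its difference of 0.12 (SE 0.19) was smaller than its error.

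The 4 probes of CTSC, the dipeptidyl aminopeptidase that activates granule serine proteases of leukocytes, did not move in 1 direction. By ILMN_1792885 CTSC read 7.82, 7.82 and 7.76 in control and 7.72, 7.41 and 7.74 in NME2-induced cells, a difference of -0.18 (SE 0.11). By ILMN_2242463 CTSC read 8.72, 8.69 and 8.61 in control and 8.89, 8.73 and 8.73 in NME2-induced cells, a difference of 0.11 (SE 0.09). Both probes had groups that did not overlap, in opposite directions and by margins smaller than their SE, so that the gene had no single direction. By ILMN_1696347 CTSC stood at 0.23 (SE 0.12), with NME2-induced replicate 2 among the control arrays. By ILMN_1689086, designed to another RefSeq transcript and detected on 2 control and 3 NME2-induced arrays, CTSC stood at 0.10 (SE 0.14). The lowest and the highest CTSC probe were 0.41 apart on the log2 scale.

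CTSH and CTSZ are exopeptidases, an aminopeptidase and a carboxypeptidase. CTSH is known from type II pneumocytes, where it takes part in surfactant protein processing, and its probes lay close together, at 0.15 (SE 0.09) by ILMN_1752451 and 0.17 (SE 0.10) by ILMN_2390853. By ILMN_2390853 CTSH read 8.48, 8.51 and 8.75 in control and 8.72, 8.70 and 8.83 in NME2-induced cells, so control replicate 3 lay within the range of the NME2-induced arrays. CTSZ was dim: it was detected on 3 control arrays and on 1 NME2-induced array. CTSZ read 4.83, 5.35 and 5.12 in control and 5.23, 4.48 and 4.66 in NME2-induced cells. Its difference of -0.31 was second in size among the lower members, but its SE of 0.21 was the largest of all 18 probes and the groups overlapped. The difference of CTSZ ranged from -0.53 without NME2-induced replicate 1 to -0.16 without NME2-induced replicate 2.

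Over the family, 11 of 18 probes had a higher and 7 a lower mean in the NME2-induced arrays, and the median difference was 0.06. With the brightest probe of each gene, 5 were higher and 5 lower with a median of 0.016, and without control replicate 1 the median over the 18 probes was 0.013. Over all detected probes the median was 0.00 and 49.4% had a higher mean. The median absolute difference was 0.162 for the members and 0.125 for all detected probes. CTSD alone lay outside the central 95% of all detected probes, which ran from -0.43 to 0.40. By limma's adjusted threshold of 0.05, 0 of 18 members were past it, against 46 of 19394 probes (0.237%). The count depended on the settings: 1 member was past it with normexp and an offset of 50, where 278 of all probes were, and 2 when eBayes was run with trend and robust set, where 476 were. At an unadjusted p under 0.05 there were 3 (1 higher, 2 lower), against 13.6% of all detected probes. The methods' t-test gave 3 as well, against 13.2% of all. The groups did not overlap at 5 member probes, against 20.9% of all. Of these, 2 were higher (CTSC and LGMN; 10.1% of all probes were) and 3 were lower (CTSB, CTSC and CTSD; 10.8% of all).

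**Figure D3:**
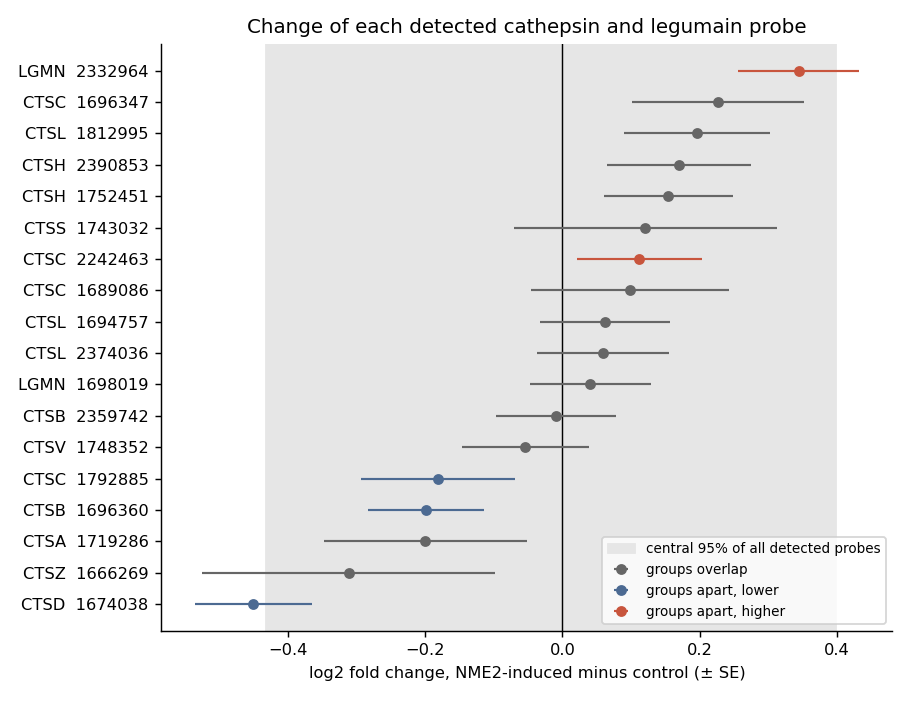
Log2 fold change (NME2-induced minus control, horizontal axis) of the 18 detected probes, with bars for ± SE. Blue and red mark probes whose groups do not overlap, and the grey band is the central 95% of all detected probes, from -0.43 to 0.40. CTSD is the probe outside the band.

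The members were not shifted as 1 block on any array. Set against each probe's control mean, the median over the 18 probes was -0.05, 0.02 and 0.00 on control replicates 1, 2 and 3, and 0.03, 0.04 and 0.06 on the NME2-induced replicates. On the NME2-induced arrays 10, 10 and 13 of 18 probes lay above the control mean. The control arrays had 7, 13 and 9. The median SD within groups was 0.09 for the members, compared with 0.147 over all detected probes, which were not matched for signal level. Not every member was that close: CTSZ had an SD of 0.33 and CTSS of 0.29.

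**Figure D4:**
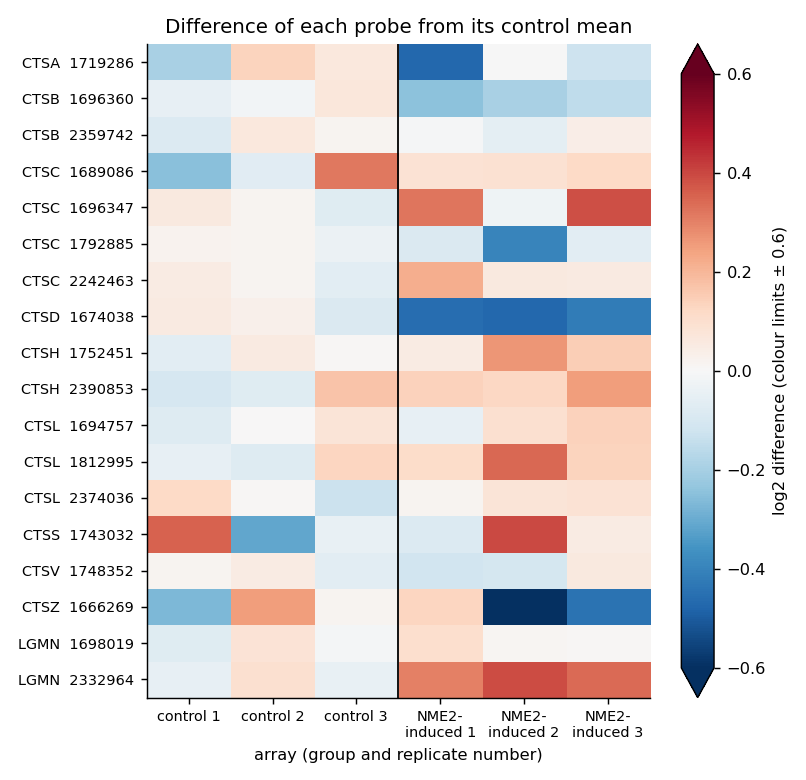
Difference of each of the 18 probes from its control mean (log2, colour, limits ± 0.6) on each of the 6 arrays. The row of CTSD is blue and that of LGMN ILMN_2332964 red on all 3 NME2-induced arrays, while CTSS and CTSZ vary between replicates of 1 group.

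The probes whose levels over the 6 arrays were most like CTSD were those of TAF15 (Pearson r = 0.999), IFI6 (0.995), UQCRB (0.993), HNRNPUL2 (0.993) and CCT8 (0.992). Their differences ranged from -0.87 for TAF15 to -0.05 for CCT8, so a like pattern did not mean a like size. The 6 arrays hold a single contrast, and 117 of 14896 candidate probes had r above 0.95 with CTSD.

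Around the proteases, 8 lists of lysosome genes by role held 112 genes, of which 87 had a detected probe (115 probes). By limma 0 of the 115 passed over all detected probes (adjusted p 0.180 to 0.998), and 12 (8 higher, 4 lower; 10.4%) had an unadjusted p under 0.05, where 13.6% of all detected probes did. The methods' t-test gave 21 of the 115 at that threshold, and 0 after adjustment. This was a larger share than the 13.2% of all detected probes, whereas the limma share was smaller than that of all. The median difference was 0.01.

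Among the inhibitors, which bind cathepsins or legumain, 4 of 12 genes were detected. The secreted cystatin CST3 stood at 0.09 and the cytosolic CSTB at 0.13. CST7, a cystatin of leukocytes, stood at -0.52 (SE 0.15, limma adjusted p = 0.217) and was detected on 3 control arrays and 1 NME2-induced array. The partners of CTSA in its complex, NEU1 and GLB1, were at 0.22 (SE 0.11) and, for the GLB1 probes, at -0.10 (SE 0.10) and 0.02 (SE 0.09). GRN, whose protein cathepsins cleave into granulins, was at 0.23 (SE 0.10) by 1 probe and 0.10 (SE 0.12) by the other. In the list of further lysosomal proteases, the serine protease DPP7 stood at 0.39 by 1 of 3 probes (SE 0.11, limma adjusted p = 0.212), the carboxypeptidase SCPEP1 at 0.25 and CTSK at -0.32, all short of the threshold.

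Of the genes that bring proteases to the lysosome, GNPTAB, which builds the mannose 6-phosphate tag, was at 0.25 (SE 0.16), the adaptor GGA3 at 0.22 (SE 0.12) and 0.30 (SE 0.17) by its probes, and the retromer subunit VPS26A at -0.24 (SE 0.13) by 1 probe and -0.04 (SE 0.08) by the other. Subunits of the V-ATPase, the proton pump that acidifies the lysosome, had a median of -0.01 over 21 probes, with ATP6V1D at -0.25. ATP6V1H was at -0.27 (limma adjusted p = 0.314) and -0.12 by its probes, and ATP6V0E1 at 0.22 and -0.02. The list of membrane proteins, which also held the soluble NPC2, had a median of 0.01 over 19 probes. In it CLN3 stood at 0.46 by 1 of its 2 probes (SE 0.12, limma adjusted p = 0.196). CLCN7 was at -0.17 (SE 0.09) with groups apart, and LAMP2 ran from -0.23 to 0.04 over its probes. Other hydrolases had a median of 0.01 over 29 probes. HEXA, which degrades gangliosides, was at 0.44 (SE 0.11, limma adjusted p = 0.180), GAA, which degrades glycogen, at 0.44 by 1 of 2 probes (SE 0.13, limma adjusted p = 0.230) and the nuclease DNASE2 at 0.26 (SE 0.08, limma adjusted p = 0.263). Of the regulators, TFEB was not detected on enough arrays, TFE3 stood at 0.02 (SE 0.11), MITF at 0.19 (SE 0.15), the kinase MTOR at 0.21 (SE 0.08, limma adjusted p = 0.343) and the GTPase RRAGC at -0.22 (SE 0.09, limma adjusted p = 0.363).

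**Figure D5:**
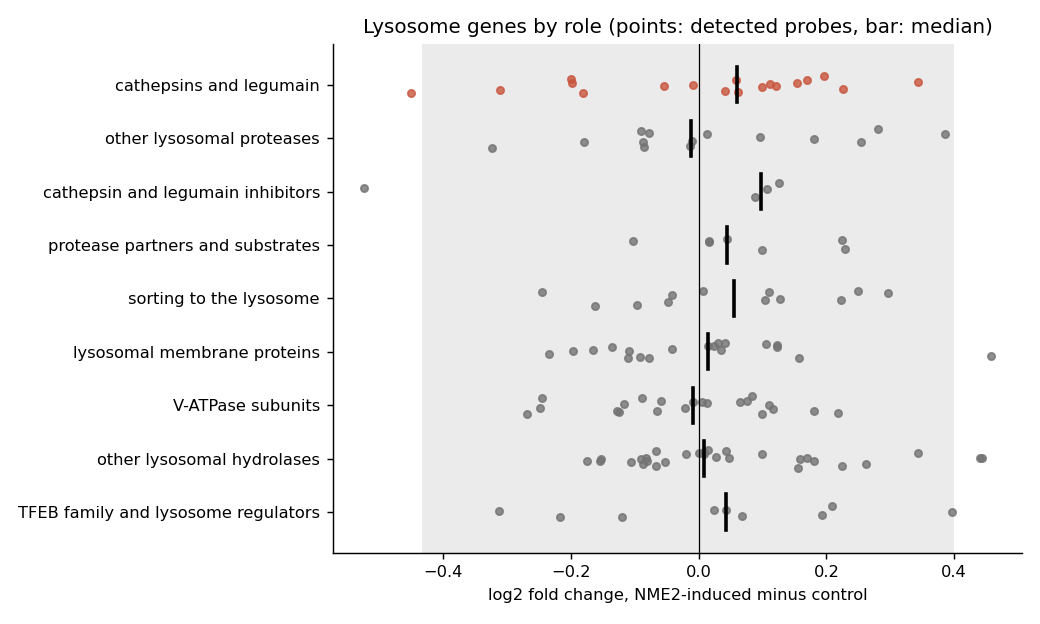
Log2 fold change (NME2-induced minus control, horizontal axis) of detected probes of the cathepsins and legumain (red) and of 8 lists of other lysosome genes (grey), with a bar at each median. The grey band is the central 95% of all detected probes. The list medians lie between -0.01 and 0.10, and the members spread from -0.45 to 0.34.

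Between 19043 and 20726 probes were detected per array. Of 8 epithelial and A549 marker genes on the array, 6 were detected, among them ALDH1A1, KRT8 and EPCAM, while KRT18 and AKR1C1 did not meet the filter. The mean log2 signal of the detected probes of this list was 9.69 to 9.75 on control and 9.65 to 9.71 on NME2-induced arrays. Within it CDH1 stood at 0.40 (SE 0.10, limma adjusted p = 0.197) and KRT19 at -0.23 (SE 0.09, limma adjusted p = 0.348), both with groups apart. Of 7 leukocyte and macrophage markers, 2 were detected (CD14 and CSF1R), and PTPRC, which encodes CD45, did not meet the filter. The level of that list, as the mean log2 signal of its detected probes, was 5.55 to 5.82 on control and 5.69 to 5.87 on NME2-induced arrays. CD14 stood at 0.23 (SE 0.11, limma adjusted p = 0.425) with groups apart, and CSF1R, detected on 2 control arrays and 1 NME2-induced array, at -0.07 (SE 0.20). Of 7 fibroblast and endothelial markers, 2 (LUM and COL1A1) were detected, with means of 5.82 to 6.00 and 5.86 to 6.05. Their part in the results was not tested.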

How the data were processed

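RNA of 3 control and 3 NME2-induced A549 samples was measured on 1-colour Illumina bead arrays (Human HT-12 v4). The authors exported the deposited intensities and the deposited detection p-values from BeadStudio (version not given in the sources used here). The table described as not normalized was identical to the other deposited table. Its medians were 7.54 to 7.57, with 26.6% to 26.8% of signals at or below 0. Intensities also recurred exactly between arrays, such as 408.826 for CTSA on control replicate 2 and for CTSC (ILMN_2242463) on NME2-induced replicate 2. The values were therefore already background-subtracted and normalized between arrays. The planned neqc (offset 16, background from detection p-values) was kept. On this scale the change of dim probes is understated.

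Probes with detection p under 0.05 on at least 3 of 6 arrays were kept. Groups were compared with lmFit and eBayes of limma 3.58.1 in R 4.3.3, 2-sided, with Benjamini-Hochberg adjustment over all 19394 probes and a threshold of 0.05. The fit was tested on simulated data with inserted changes larger than any member difference, so recovery of differences of the members' size was not examined. Errors are SD over 3 arrays or the moderated SE, and the number of arrays limits the precision. Slides and scan dates were not given, so no batch could be examined.

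Symbols came from the platform annotation (1 symbol for 30113 probes, several for 8, none for 17110), and 0 changed on update through the RefSeq table. Every member probe was described; of each lysosome list, genes past the threshold or otherwise up to 3 with the smallest p; and the 5 probes with the highest r to the member probe with the smallest p. Members, lists and rules were chosen with earlier results of these data known. TFE3 and MITF, named beyond this rule, were chosen after their values were seen. Alternatives were other background corrections, no second normalization, other filters, eBayes options, the methods' t-test, 1 probe per gene, the replicate number as a block, and each array left out. Promoter motifs were counted in RefSeq windows of 250 bases; 3 members without an entry are CTSB, CTSS and LGMN.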

Additional observations from a re-analysis of the deposited data

How the results depend on the processing

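With member values compared under each alternative, 277 of 278 moved by less than the spread between replicates, but most could not have moved further. Filters, eBayes options, the methods' t-test, the replicate block, 1 probe per gene and the identical deposited table leave each difference unchanged. Leaving out 1 array of 3 cannot shift it past that spread. The other background corrections and the run without a second normalization could. Among those, CTSD moved to -0.39 with normexp and an offset of 50. That setting put 1 member past the threshold, and eBayes with trend and robust options put 2 there, together with 1 other lysosomal gene (GAA, limma adjusted p = 0.0300); under every other alternative run the member count was 0. The count over all detected probes, 46, was 278 with normexp, 476 with trend and robust options, 116 with detection required on all 6 arrays, 29 with no filter, 28 with 1 probe per gene, 6 by the methods' t-test and 3 to 6 with any 1 array left out. Same-numbered arrays did not deviate together (correlations 0.02, -0.02 and -0.02), which cannot decide whether they were prepared as pairs. With the replicate block the count over all detected probes was 3, and 0 members passed. The median over members, 0.06, was 0.016 with 1 probe per gene and 0.013 to 0.070 with 1 array left out, lowest without control replicate 1. With 1 array left out, CTSD ran from -0.49 to -0.42, LGMN (ILMN_2332964) from 0.32 to 0.39, CTSA from -0.30 to -0.06, CTSZ from -0.53 to -0.16 and CTSS from -0.03 to 0.30. The sign changed for ILMN_2359742 of CTSB under 2 alternatives, CTSS under 2, and 1 probe each of CTSC and CTSL under 1. The 3 arrays per group limit which differences could pass.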

Other observations

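Probes of 1 gene also stood apart in other lysosome genes. DPP7 stood at 0.39 (SE 0.11) by 1 probe and at -0.01 by both others. CLN3 stood at 0.46 (SE 0.12) and 0.12 (SE 0.11), and GAA at 0.44 (SE 0.13) and 0.10 (SE 0.11). FLCN, a regulator of nutrient signalling at the lysosome, stood at 0.40 (SE 0.20) by 1 probe and -0.31 (SE 0.25) by another. The 6 probes of LAMP2, a lysosomal membrane glycoprotein, ran from -0.23 to 0.04. These values were chosen after they were seen, and the differences between probes were not tested.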
